A study of Homo sapiens with 12 samples.

Results

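The baseline gene expression of U251 cells was described from the 3 arrays of cells that received a control siRNA, out of 12 arrays in the series. U251 is an established human glioblastoma line, and the control siRNA was one that targets no known human transcript. The cells were grown in serum-containing medium and transfected with siRNA by the lipid reagent DharmaFECT 2, each siRNA at 50 nM, a treatment that the knock-down groups of the series shared. Total RNA was labelled as biotin cRNA and hybridised to Affymetrix GeneChip arrays. Since every array of the series came from transfected cells, the levels below are those of transfected and not of untouched cells, in culture and not in a tumour. The labels do not say whether the 3 arrays came from separate cultures, so the spread between them may be technical.

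All 10346 genes that a probe set named alone were ranked by the mean of their deposited log2 level over the 3 arrays, each gene by its brightest probe set over the 12 arrays. The rank is one of brightness. Probe sets bind with different strength, so it is not an order of transcript abundance. In bulk RNA, fewer cells that express a gene and less RNA per cell cannot be told apart. The median gene lay at 8.79, the top 25% of genes by level (2587 genes) began at 10.07 and the top 10% (1035 genes) at 11.37. Of those 1035 genes, 958 were in the top 10% of each of the 3 arrays taken alone. The median SD over the 3 arrays was 0.12 log2 for all genes, 0.18 in the dimmest 25% and 0.061 in the top 10%.

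Glioblastoma is the most malignant astrocytic tumour, and its cells often carry intermediate filaments of glial type (GFAP) together with vimentin. Its expression states are commonly described as proneural, classical or mesenchymal, the last marked by matrix, adhesion and CD44-related genes. Lines kept in serum commonly lose part of the neural stem cell programme. A growing culture also spends much of its messenger RNA on ribosomes, cytoskeleton and energy metabolism, so such genes lead most rankings of this kind.

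The 4 marker genes of the glioma cells were examined first, and 3 of them stood among the brightest genes. VIM, which encodes vimentin, the main filament protein of mesenchymal cells and of many gliomas, was at 14.51, 14.51 and 14.45 in replicates 1, 2 and 3 (mean 14.49 ± 0.03, SD, n = 3) and ranked 4. GFAP, the filament protein of astrocytes, was at 13.59, 13.50 and 13.43 (13.51 ± 0.08, SD, n = 3) and ranked 92. CD44, the hyaluronan receptor, was at 13.40, 13.38 and 13.26 (13.35 ± 0.08, SD, n = 3) and ranked 117. These 3 genes differed between arrays by far less than they lay above the median gene. CHI3L1, a secreted chitinase-like glycoprotein often used to mark mesenchymal glioblastoma, behaved otherwise. Its values were 8.42, 8.27 and 7.91 (8.20 ± 0.26, SD, n = 3), rank 6352, at percentile 38.6 from the bottom, and all 3 arrays lay below the median gene. Of the 4 markers, GFAP, VIM and CD44 were thus bright and CHI3L1 was not. Brightness within 1 line does not test the identity of the cells. Other probe sets gave other levels for the same genes. The second probe set of GFAP lay at 11.02, 10.69 and 10.61, that of CHI3L1 at 7.68, 7.52 and 7.39, and the 8 probe sets of CD44 ran from 4.66 to 13.35.

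**Figure D1:**
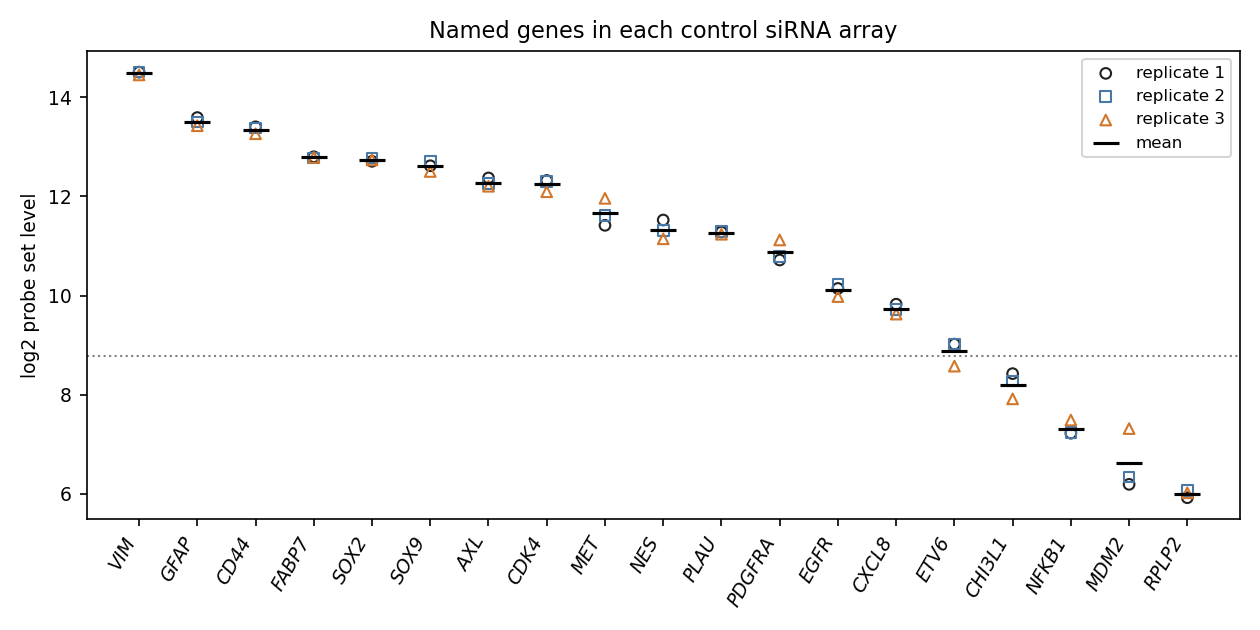
Log2 probe set level (vertical axis) of the marker genes and of other genes named in the text, in order of mean; the 3 open symbols are the 3 control arrays, the bar is their mean and the dotted line marks the median of all genes. VIM, GFAP and CD44 lie at the top on every array, while CHI3L1 lies below the median of 8.79 on all 3.

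The 2 genes knocked down elsewhere in the series were measured at middle and low brightness in the control cells. ETV6, an ETS-family transcriptional repressor, was at 9.02, 9.02 and 8.58 (8.87 ± 0.26, SD, n = 3, rank 4997). NFKB1, which encodes the p105/p50 subunit of NF-kB, was at 7.22, 7.24 and 7.49 (7.32 ± 0.15, SD, n = 3, rank 8159). Replicate 3 was the lowest array for ETV6 and the highest for NFKB1.

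The 20 brightest genes lay within 0.378 log2 of each other, and the largest SD among them was 0.067. ANXA2, a calcium-dependent membrane-binding protein of the cell cortex, led with 14.67, 14.69 and 14.64 (14.67 ± 0.02, SD, n = 3). EEF1A1, the elongation factor that brings aminoacyl-tRNA to the ribosome, followed at 14.52, 14.53 and 14.56, and ACTB, cytoplasmic beta-actin, at 14.56, 14.50 and 14.43. Of the 19 pairs of neighbours in this order, 17 overlapped in their values over the arrays. The exceptions were ANXA2 over EEF1A1 and RPL41 over UBB, so the order of most of the 20 genes was not resolved. Of the 20, 9 encode ribosomal proteins: RPL41, RPLP1, RPL37A, RPS18, RPL23A, RPS16, RPS19, RPL39 and RPS10. The others include VIM, the polyubiquitin gene UBB, the ferritin light chain FTL, the prolyl isomerase PPIA, the actin-sequestering peptide TMSB4X, the glycolytic enzyme GAPDH and the calcium-binding protein S100A6. The last is FTH1P5, a ferritin heavy chain pseudogene whose probe set may read the parent transcript, so its level is uncertain. Names of Affymetrix probe sets that end in x_at or s_at mark probes that can bind more than 1 transcript. Such sets stood for 18 of the 20 brightest genes, 9 of each kind, whereas x_at sets stood for 6.58% and s_at sets for 31.4% of all genes.

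Several of the brightest genes share a feature at the start of their transcripts, which is shown here because it was not used in the ranking. Transcripts of ribosomal proteins and several translation factors begin with a cytosine followed by a run of pyrimidines, the 5' terminal oligopyrimidine (TOP) motif, through which the cell controls their translation in bulk. The motif was searched as a C at an annotated start followed by at least 4 bases that are each C or T, on the sense strand, at any start listed for a gene. The windows below run from 15 bases before the start to 15 bases from it, 5' to 3', from the RefSeq promoter table (GRCh38.p14), with the pyrimidine run in capitals. The first 5 are bright genes that hold the motif, the next 4 are bright genes that do not, and the last 2 hold it and yet were dim.
RPL41, chr12:56116618-56116647, plus strand: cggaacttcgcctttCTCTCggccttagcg
RPLP1, chr15:69452803-69452832, plus strand: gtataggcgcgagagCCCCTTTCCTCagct
RPS18, chr6:33272060-33272089, plus strand: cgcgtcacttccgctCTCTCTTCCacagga
EEF1A1, chr6:73521018-73521047, minus strand: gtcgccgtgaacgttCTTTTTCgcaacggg
TPT1, chr13:45341169-45341198, minus strand: agcggctgagtcggcCTTTTCCgcccgctc
ANXA2, chr15:60397972-60398001, minus strand: aggccagccggctctgctcagcatttgggg
VIM, chr10:17228226-17228255, plus strand: gtgcaatcgtgatctgggaggcccacgtat
GAPDH, chr12:6535249-6535278, plus strand: agcgggtgcatccctgtccggatgctgcgc
CD44, chr11:35139156-35139185, plus strand: aacttccgaggcagcctcattgcccagcgg
RPL27A, chr11:8682777-8682806, plus strand: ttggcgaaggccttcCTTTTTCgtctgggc
RPLP2, chr11:809952-809981, plus strand: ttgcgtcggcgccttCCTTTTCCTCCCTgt

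A start was listed for 8628 of the ranked genes, several starts for 2605 of them. The TOP motif was present in 651 of the 8628, or 7.55%. It was present in 111 of 882 genes (12.6%) in the top 10% of all ranked genes. When the 8628 genes were themselves divided by level into 10 bins of equal size, the brightest bin held 12.6% and each of the other 9 between 5.10% and 8.34%. Without ribosomal and translation factor genes, the share in the top 10% was 72 of 827, or 8.71%, so most of the difference from all genes lay in those genes. Among the ribosomal protein genes with a start, 34 of 46 (73.9%) held the motif, with a median run of 8 bases (5 to 19), and among the translation factors 10 of 24 (41.7%). Of the 20 brightest genes 17 had a start, and 9 of these held the motif. All 9 encode ribosomal proteins or the elongation factor EEF1A1, kinds of gene already known for the motif. A TATAAA box, searched on the sense strand 40 to 16 bases before the start, was found in 1.99% of all genes and in 4.08% of the top 10%. A match describes letters in a window and does not show a working site.

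**Figure D2:**
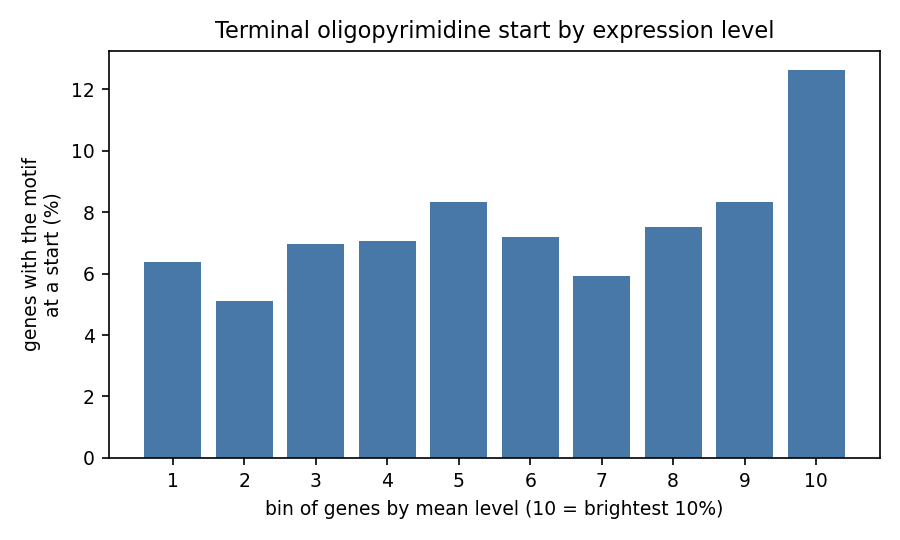
Share of genes with a TOP motif at an annotated start (vertical axis, percent) in 10 equal bins of the 8628 genes with a start by mean log2 level over the control arrays (horizontal axis, dimmest to brightest). The brightest bin holds 12.6%, and the other 9 bins between 5.10% and 8.34%.

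The ribosomal protein genes formed the brightest list of all. Of 79 fixed, 52 were measured. Of these, 50 were in the top 25% of genes, a share of all genes that the cut fixes, and the same 50 in the top 10%. RPL41 was at 14.48, 14.47 and 14.51, RPLP1 at 14.44, 14.46 and 14.39, and RPS18 at 14.40, 14.41 and 14.43. Each of these varied by less than 0.1 log2 between arrays. The exceptions were RPL27A at 7.43, 7.72 and 7.79 and RPLP2 at 5.92, 6.06 and 6.02, both low on all 3 arrays. The level of RPLP2 was close to the 5th percentile of all probe sets, which lay at 5.82, 5.87 and 6.04. Whether the probe sets of these 2 genes read their transcripts fully was not tested. Many ribosomal protein genes have near-identical pseudogenes, so the brightness of a single member is uncertain.

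Translation, protein folding and protein turnover genes followed the same pattern. Of 34 translation factors, 32 were in the top 25% and 17 in the top 10%. TPT1, a growth-associated protein translated from a TOP transcript, was at 14.17, 14.19 and 14.17, EIF1, which helps select the start codon, at 13.86 on all 3 arrays, and EEF2, the translocation factor, at 13.87, 13.82 and 13.71. EEF1A2, the muscle and neuron form of the elongation factor, was the dimmest at 7.29, 7.40 and 7.30. Among 33 chaperones, 29 were in the top 25%. CRYAB, a small heat shock protein that is abundant in astrocytic tumours, was at 13.75, 13.72 and 13.74, and HSP90AA1, the inducible cytosolic HSP90, at 13.15, 13.35 and 13.35. DNAJC3, a co-chaperone of the endoplasmic reticulum, was the dimmest at 8.47, 8.50 and 9.23, with replicate 3 apart from the others. Of 34 proteasome subunits, 30 were in the top 25%, led by PSMB4 at 13.37, 13.36 and 13.44. The interferon-induced catalytic subunit PSMB9 was lower, at 9.78, 9.76 and 9.77, and steady over the arrays.

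Energy metabolism was bright in both its branches. Of 67 nuclear genes for subunits of the respiratory chain and ATP synthase, 66 were in the top 25% and 49 in the top 10%, with a median percentile of 95.9. The brightest was ATP5MG, a subunit of ATP synthase, at 13.57, 13.56 and 13.63, and the dimmest NDUFS1, a core subunit of complex I, at 9.88, 9.97 and 10.20. Of 21 glycolysis genes, 15 were in the top 25%. PGK1 was at 13.92, 13.95 and 13.97, ALDOA at 13.88, 13.84 and 13.81 and ENO1 at 13.84, 13.82 and 13.84, each an enzyme of the lower or middle pathway. The dimmest 3 genes of the list were the hexokinase HK2, the glucose transporter SLC2A3 and PDK1, which restrains pyruvate entry into mitochondria. HK2 was at 8.53, 8.71 and 8.67, SLC2A3 at 8.39, 8.82 and 8.64 and PDK1 at 8.24, 8.46 and 8.94. All 3 had means below the median gene, although replicate 2 for SLC2A3 and replicate 3 for PDK1 lay above it. Another hexokinase, HK1, and another glucose transporter, SLC2A1, had higher means of 11.68 and 9.99. Both are named here after their values were seen. Of 26 antioxidant and iron genes, 22 were in the top 25%. FTL was at 14.39, 14.42 and 14.41, the peroxidase PRDX1 at 13.98, 13.99 and 13.97 and NQO1, an NRF2 target that reduces quinones, at 13.63, 13.69 and 13.63. SLC7A11, the cystine transporter, was the dimmest of the list at 9.03, 9.08 and 10.06, with replicate 3 about 1 log2 higher than the others.

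**Figure D3:**
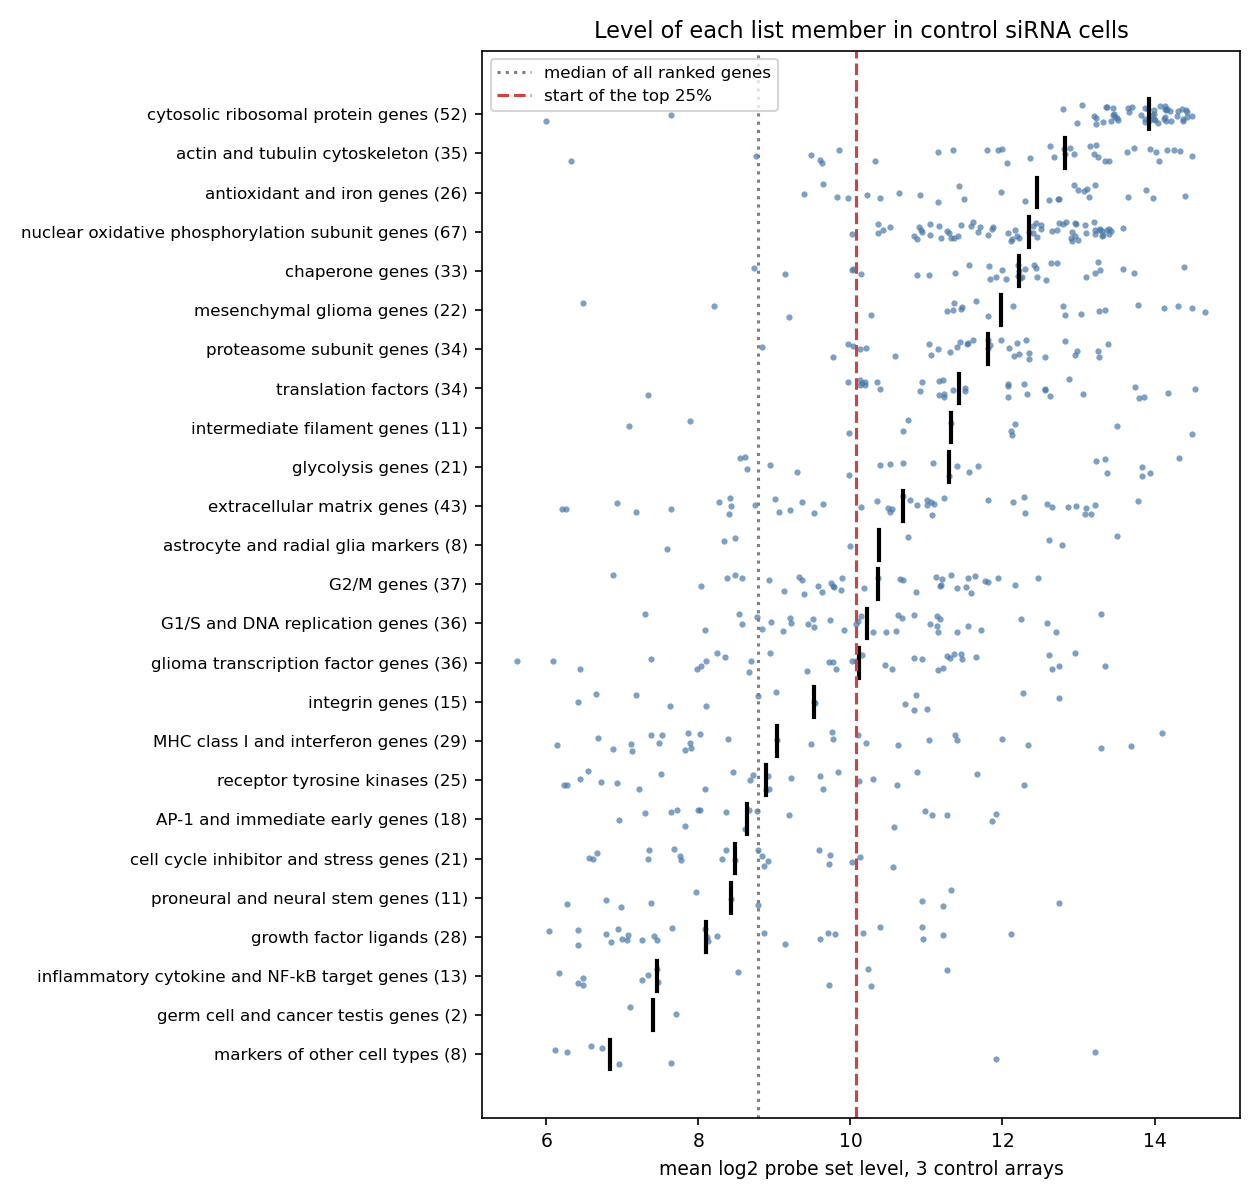
Mean log2 probe set level over the 3 control arrays (horizontal axis) of each measured gene in the 25 lists, with the number of measured genes in parentheses and the list's median as a black bar; the dotted line marks the median of all genes (8.79) and the dashed line the start of the top 25% (10.07). Ribosomal, cytoskeletal, antioxidant and respiratory chain genes have the highest medians, and inflammatory genes, germ cell genes and markers of other cell types the lowest.

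The cytoskeleton carried 26 of its 35 measured actin and tubulin genes in the top 10%. TMSB4X was at 14.31, 14.34 and 14.35, the alpha-tubulin TUBA1B at 14.26, 14.25 and 14.24 and TMSB10, another actin-sequestering peptide, at 14.16, 14.15 and 14.16. Alpha-tubulin genes are near-identical in sequence and were read by x_at or s_at sets, so the members cannot be told apart firmly. Genes known from contractile cells were spread over the range. TAGLN, which encodes an actin-binding protein of smooth muscle, was at a mean of 6.32 ± 0.28 (SD, n = 3), lowest in replicate 3, and ACTA2, smooth muscle actin, was at 9.50, 9.49 and 9.45. Caldesmon (CALD1) and the tropomyosins TPM1 and TPM2, which bind actin in muscle and in other cells and are named here after their values were seen, had means of 13.35, 13.20 and 11.94, in the top 10%. Another tropomyosin, TPM4, also named after its values were seen, had a mean of 9.63, outside the top 25%. Of 20 intermediate filament genes, 11 were measured and 8 of these were in the top 25%. Beside VIM and GFAP these included SYNM, which encodes synemin, a partner of vimentin and GFAP, at 12.16, 12.11 and 12.12, and LMNA, lamin A/C of the nuclear envelope, at a mean of 12.16 ± 0.15 (SD, n = 3), with replicate 3 lowest. KRT18, an epithelial keratin, was at 8.04, 7.93 and 7.72 and PRPH, a filament protein of peripheral neurons, at 6.90, 7.11 and 7.24, all below the median gene. Another keratin, KRT10, at a mean of 12.11, and the neurofilament gene NEFL, at 10.70, both named after their values were seen, were in the top 25%.

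Genes listed here as marking the mesenchymal state of glioblastoma were mostly bright. This list, like the others, was chosen with earlier results of these data known, so its counts are a description only. It shares members with the lists of matrix genes and of glioma transcription factors. Of 22 measured genes, 19 were in the top 25% and 16 in the top 10%, with a median percentile of 94.1. S100A6 was at 14.29, 14.28 and 14.33 and LGALS1, a galactose-binding lectin that glioma cells secrete, at 14.11, 14.12 and 14.16. The exceptions, with CHI3L1, were FOSL1, an AP-1 subunit, at 9.32, 9.31 and 8.95, and RELB, an NF-kB subunit, at 6.52, 6.41 and 6.50. The list of 43 extracellular matrix genes had 27 in the top 25% and 13 in the top 10%. TGFBI, a matrix protein induced by TGF-beta, was at 13.79, 13.75 and 13.79, the metalloproteinase inhibitor TIMP2 at 13.19, 13.16 and 13.13 and THBS1, thrombospondin 1, at 13.12, 13.15 and 13.01. COL1A2, a chain of type I collagen, was at 13.30, 13.26 and 13.10, whereas COL1A1, the other chain of that collagen, was at 7.73, 7.77 and 7.41. The gap between these collagen chains was far wider than the spread of either gene over the arrays, but it sets different probe sets against each other. Perlecan (HSPG2) at 6.32, 6.36 and 6.09 and the stromelysin MMP3 at 6.30, 6.17 and 6.16 were among the dimmest genes measured. Of 25 integrin genes, 15 were measured and 6 of these were in the top 25%. ITGB1, the beta chain shared by many integrins, was at 12.71, 12.70 and 12.80, and ITGA11, a collagen-binding alpha chain, at 6.89, 6.31 and 6.07.

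Astrocyte and neural stem genes were divided. Of 12 astrocyte and radial glia genes fixed, 8 were measured and 4 of these were in the top 25%: GFAP, FABP7, SOX9 and SLC1A3. FABP7, the brain lipid-binding protein of radial glia, was at 12.80, 12.77 and 12.79, and SOX9, a glial transcription factor, at 12.62, 12.70 and 12.50. The glutamate transporter SLC1A3 was at 10.77, 10.73 and 10.75, and S100B, a calcium-binding protein of mature astrocytes, at 8.36, 8.50 and 8.59, below the median gene on every array. The proneural and stem list of 21 genes had 11 measured and 4 of these in the top 25%, with a median percentile of 42.9. SOX2, a factor that keeps neural stem cells undifferentiated, was at 12.71, 12.78 and 12.74, and the stem cell filament nestin (NES) at 11.52, 11.32 and 11.14. SOX4 and the neural factor POU3F2 followed with means of 11.21 and 10.95. The 3 dimmest genes of the same list act at the cell surface or in the matrix. BCAN, brevican of the brain matrix, was at 7.19, 6.95 and 6.79. The adhesion molecule L1CAM was at 6.96, 6.93 and 6.47 and CD24 at 6.12, 6.37 and 6.35. Other surface genes of the list, ITGA6, NCAM1 and PTPRZ1, had higher means of 8.78, 8.43 and 7.97. They are named here after their values were seen. The level of SOX2 rested on its brightest probe set, since its other 2 sets had means of 10.34 and 6.40.

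Markers of cell types other than glioma cells were mostly dim. Of 34 such genes fixed for neurons, oligodendrocytes, leukocytes, endothelium, epithelium and fibroblasts, 26 had no probe set here that named them alone, and 8 were measured. COL1A2 and CNP, a myelin enzyme that many other cells also express, were in the top 10%, with CNP at 12.09, 11.87 and 11.77. The other 6 had means between 6.11 and 7.64, among them the neuronal genes SYT1 at 6.79, 6.74 and 7.35, GAD1 at 6.64, 6.59 and 6.55 and SLC17A7 at 6.28, 5.92 and 6.13. The pericyte receptor PDGFRB was at 6.37, 6.22 and 6.22. None of the 8 measured genes was a marker of leukocytes, endothelium or epithelium, so these cell types were not checked. Of 27 germ cell and cancer testis genes, 2 were measured, MAGEA12 at 7.72, 7.78 and 7.62 and MAGEA6 at 7.08, 7.21 and 6.99, read by x_at sets that may not separate members of the family.

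Receptor tyrosine kinases, which receive growth factor signals and are often altered in glioblastoma, were spread over the whole range. Of 44 fixed, 25 were measured and 6 of these were in the top 25%, or close to the 25% of all genes. AXL, the receptor for GAS6, was at 12.37, 12.26 and 12.20, and MET, the hepatocyte growth factor receptor, at 11.42, 11.61 and 11.96. PDGFRA, the receptor of proneural gliomas, was at 10.72, 10.79 and 11.12 and RYK, a Wnt co-receptor, at 10.50, 10.67 and 10.69. MERTK, a relative of AXL, was at 6.58, 6.45 and 6.31 and ROR1 at 5.77, 6.38 and 6.56. The other 2 probe sets of MET had means of 6.66 and 6.30, so its place in the order rests on 1 probe set. Probe sets of EGFR, a gene named here after its values were seen, ranged from 7.60 to 10.11 over 5 sets. Of 41 growth factor ligands, 28 were measured and 6 of these were in the top 25%. The brightest was PTN, pleiotrophin, at 12.15, 12.02 and 12.18, and VEGFA, the main angiogenic factor, was at 11.15, 11.27 and 11.23. PDGFC at 10.91, 10.95 and 11.01 and CSF1, the macrophage growth factor, at a mean of 10.95 ± 0.11 (SD, n = 3) were also in the top 25%. Midkine (MDK), the relative of PTN, was at 6.26, 6.51 and 6.50, and INHBA, an activin subunit, was the dimmest at 5.66, 6.07 and 6.39. The arrays differed more among themselves for such dim genes: the SD of INHBA was 0.37 and that of PTN 0.09.

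Most genes of DNA replication and of mitosis were in the top 25%, but whether the cells were dividing was not tested. Of 36 genes for entry into S phase and DNA replication, 20 were in the top 25% and 7 in the top 10%. TYMS, which makes thymidylate, was at 13.34, 13.23 and 13.31, RRM2, a subunit of ribonucleotide reductase, at 12.70, 12.72 and 12.70 and PCNA, the polymerase clamp, at 12.59, 12.60 and 12.55. CDK4, the kinase that starts the phosphorylation of RB1, was at 12.32, 12.31 and 12.09, with replicate 3 lowest. All 37 fixed genes of mitosis were measured, and 20 were in the top 25%. CKS2, a CDK-binding subunit, was at 12.55, 12.43 and 12.43, PTTG1, securin, at 12.16, 12.16 and 12.18 and PRC1, a spindle midzone protein, at 11.84, 11.76 and 11.85. PLK1, a mitotic kinase, was the dimmest at a mean of 6.88 ± 0.14 (SD, n = 3), and the phosphatase CDC25C was at 8.07, 7.99 and 8.04. Of 30 cell cycle inhibitor and stress genes, 21 were measured, with 2 in the top 25% and 0 in the top 10%. CDKN1B, the p27 inhibitor, was at 10.60, 10.54 and 10.54, and GADD45A, a stress gene, at 10.14, 10.15 and 10.08. RB1, the retinoblastoma protein that holds back S phase, was at 9.47, 9.72 and 9.99. MDM2, a ubiquitin ligase, was at 6.19, 6.34 and 7.31, and the stress-induced SESN1 at 6.36, 6.59 and 6.72. The value of MDM2 in replicate 3 was apart from the other 2 arrays.

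Of 27 inflammatory and NF-kB target genes, 13 were measured. Their median percentile was 23.8 and 0 were in the top 10%, while 3 of 13 (23.1%) were in the top 25%, close to the share of all genes. PLAU, the urokinase protease, was the brightest at 11.28, 11.29 and 11.24, followed by TNIP1, which restrains NF-kB signalling, at 10.31, 10.15 and 10.33. NFKBIA, the inhibitor that holds NF-kB in the cytoplasm, was at 10.27, 10.31 and 10.10, and the chemokine CXCL8 at 9.83, 9.72 and 9.62. LIF was at 6.48, 6.49 and 6.29 and the chemokine CXCL3 at 6.37, 5.81 and 6.33, at the bottom of the list. Of 26 AP-1 and immediate early genes, 18 were measured and 6 of these were in the top 25%. JUN, the central AP-1 subunit, was at 11.90, 11.89 and 11.79, PHLDA1 at 12.01, 11.92 and 11.81, and FOSL2 at 11.39, 11.31 and 11.11. JUND was at 11.37, 11.08 and 10.77 while JUNB was at 7.53, 7.27 and 7.07, so the probe sets of these JUN family members lay far apart. The inhibitors of growth factor signalling DUSP6 at 7.81, 7.61 and 7.51 and SPRY4 at 7.17, 7.03 and 6.66 were dim.

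Of 37 genes of antigen presentation and the interferon response, 29 were measured and 11 of these were in the top 25%. B2M, the light chain of class I molecules, was at 14.07, 14.05 and 14.18, HLA-B at 13.73, 13.66 and 13.68, HLA-C at 13.32, 13.27 and 13.31 and HLA-G at 12.53, 12.33 and 12.16. The HLA genes were read by x_at sets that bind related class I transcripts, so the single members are uncertain. The sensors of viral RNA were dim, with IFIH1 at 6.62, 6.54 and 6.87 and RIGI at 6.17, 5.89 and 6.36. Of 50 glioma transcription factors, 36 were measured, with 19 in the top 25% and 9 in the top 10%. ID1 was at 13.37, 13.35 and 13.32, ID3 at 13.07, 12.88 and 12.90 and ID2 at 12.74, 12.69 and 12.53. The ID proteins are partners of basic helix-loop-helix factors that prevent their binding to DNA. The ETS factors ETV4 at 6.26, 6.27 and 5.72 and ETV1 at 5.39, 5.30 and 6.15 were at the other end, as was EN1 at 6.80, 6.46 and 6.08.

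The level given to a gene depended on the probe set that stood for it. Among the 4482 genes with more than 1 probe set, the brightest and the dimmest set differed by a median of 1.5 log2. The median SD between arrays was 0.12 over all genes, which is another measure of spread and another set of genes. The gap was over 2 log2 in 1670 genes (37.3%) and over 4 in 401. It was widest for GNAS, the stimulatory G protein subunit, with 14.11 against 5.11, for CD44 with 13.35 against 4.66 and for IGFBP7, a secreted binding protein of growth factors, with 14.09 against 5.46. S100A6, RPS16 and RPL37A followed with gaps of 8.30, 8.25 and 8.17. With the brightest set standing for a gene, genes with many sets ranked higher. The median percentile was 41.2 for the 5864 genes with 1 set, 54.8 for the 2815 with 2, 63.4 for the 1111 with 3 and 70.9 for the 556 with 4 or more. With the mean of a gene's sets in its place, the same medians were 51.3, 48.4, 50.0 and 50.7.

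Replicate 3 stood apart from the other 2 control arrays, while no pair among all 12 arrays was identical. Over all genes Spearman's rho was 0.9962 between replicates 1 and 2, 0.9816 between 1 and 3 and 0.9850 between 2 and 3, given as a description of arrays that share probes. A gene was counted as apart where an array lay over 1 log2 from the mean of the other 2 while those lay within 0.5 of each other. Replicate 3 was above in 65 genes (0.628% of the 10346) and below in 0 (0%), whereas replicate 1 was below in 1 gene and replicate 2 was apart in 0. At a distance of over 0.5 log2, without a condition on the other 2 arrays, replicate 3 was above in 901 genes (8.71%) and below in 173 (1.67%). The genes over 0.5 above were mostly dim, with a median percentile of 28.4. So were those over 0.5 below, with a median percentile of 23.0. The other probe sets of the 65 genes, which the count did not use, were checked. Of 54 further probe sets of 36 of the 65 genes, 50 were higher in replicate 3, 41 of them by over 0.5 log2, with a median of 0.788. These sets read the same RNA on the same arrays, for genes picked because replicate 3 was high. They are therefore not an independent check, and the share over all further probe sets was not computed.

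Among genes at or above the 25th percentile, PI15, a secreted peptidase inhibitor, stood furthest above, at 9.53, 9.30 and 10.75. NRIP1, a corepressor of nuclear receptors, was at 7.45, 7.11 and 8.54, XRN1, the main cytoplasmic 5' to 3' exonuclease, at 7.49, 7.46 and 8.60 and HSPA13, a chaperone of the HSP70 family, at 7.97, 7.88 and 9.05. RANBP6, DMXL1, MARCHF7 and RASSF8 were higher in replicate 3 by 1.23, 1.14, 1.12 and 1.09. Each of these 8 genes had the 2 other arrays close together and replicate 3 outside them. The 8 genes furthest below were nearer to the rest. HECTD3, a ubiquitin ligase, was at 8.41, 7.96 and 7.39, and TYRO3, a receptor tyrosine kinase of the AXL family, at 8.87, 8.94 and 8.21. The differences of TBC1D10B, PNPLA2, AP4M1, ATXN7L3, MLF2 and VAC14 lay between -0.70 and -0.65. MLF2 was at 9.78, 9.29 and 8.87, so its replicates 1 and 2 also lay apart from each other.

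**Figure D4:**
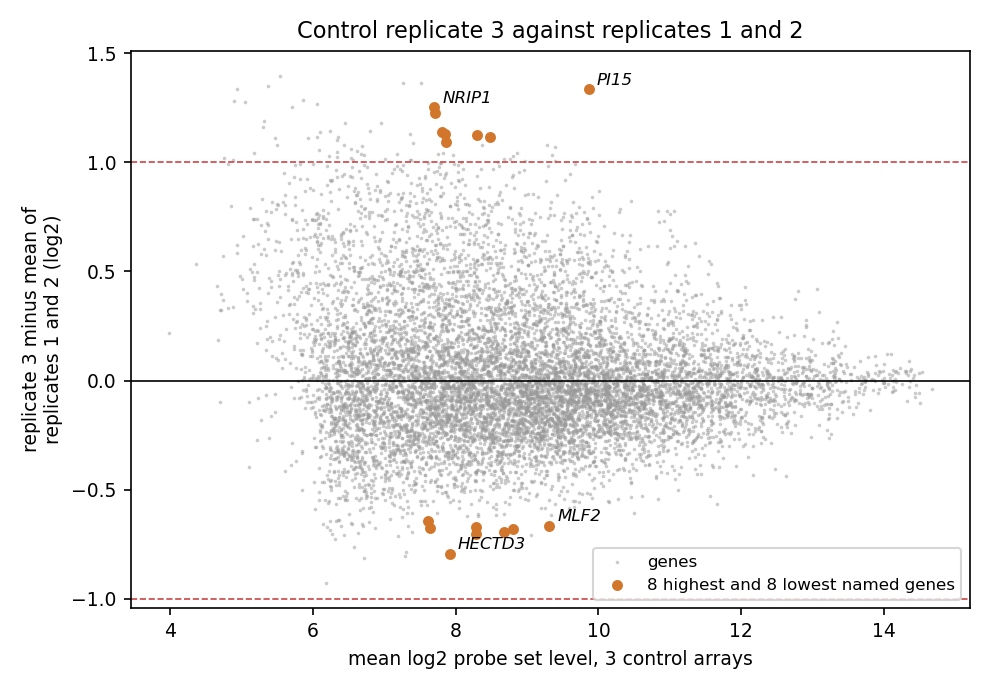
Replicate 3 minus the mean of replicates 1 and 2 (vertical axis, log2) against mean log2 level (horizontal axis) for the ranked genes other than XIST and Y-linked genes. Orange points are the 8 highest and 8 lowest genes at or above the 25th percentile of level, and dashed lines mark 1 log2. Points above 1 gather at low and middle levels, and the cloud narrows toward 0 for the brightest genes.

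The deviation of replicate 3 differed in sign between lists. Over all genes its median was -0.02, with 4826 genes higher and 5520 lower. The AP-1 and immediate early list had a median of -0.23, with 15 of 18 genes lower, among them JUND and JUNB. The extracellular matrix list had a median of -0.13, with 38 of 43 lower. The list of cell cycle inhibitor and stress genes had a median of 0.19, with 12 of 21 genes higher and 9 lower. Of the 21, 5 were over 0.5 log2 higher, MDM2 by 1.05, beside 8.71% of all genes. The mitosis list had a median of 0.06, with 25 of 37 higher and 6 of them by over 0.5. These are differences between single arrays of 1 group, so no test was possible. For several measures of the RNA and of the hybridisation, replicate 3 was also the highest or the lowest array. Its 3' to 5' difference for ACTB was 1.91, against 1.54 and 1.73, and its 18S ribosomal RNA probes averaged 13.35, against 13.11 and 13.09. Its poly-A spike-in probes averaged 8.53, against 8.82 and 9.35, and its hybridisation spike-in probes 10.90, against 11.19 and 11.25. The medians of all probe sets were 8.24, 8.22 and 8.27. The part of these measures in the deviation was not tested.

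**Figure D5:**
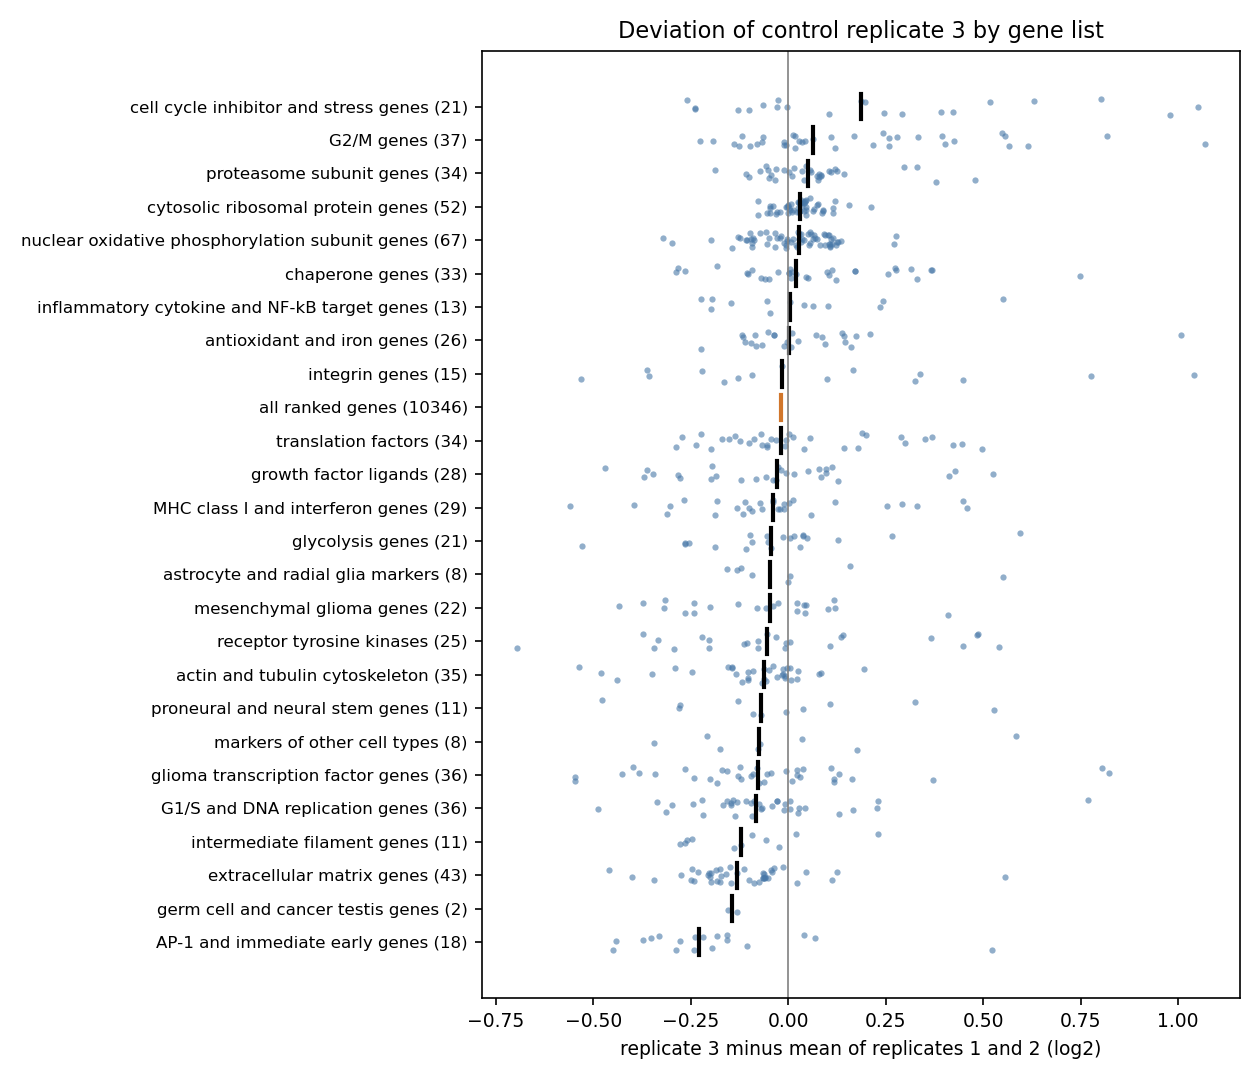
Replicate 3 minus the mean of replicates 1 and 2 (horizontal axis, log2) for each measured gene of each list, with the number of genes in parentheses and the list's median as a bar; the orange bar is the median of all genes. The median is -0.23 for AP-1 and immediate early genes and 0.19 for cell cycle inhibitor and stress genes.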

How the data were processed

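The authors deposited log2 expression values for 19520 probe sets on 12 arrays, all as 1 table per the file headers. The scale was read from the values, which ran from 3.05 to 14.69 on the control arrays. The background correction and normalisation were not given in the sources used here, nor was any filter on probe sets. Scanner files were not used here, so no detection call supports the low values, and precision is limited by having 3 arrays. Probe sets were named through the platform annotation: 17313 named 1 gene, 857 several, 1293 none and 57 were controls. Only the first kind entered the ranking, 10346 genes in all. Entrez IDs of 17307 probe sets were found in the RefSeq gene table.

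A gene was represented by the set that was brightest across the 12 arrays, and the mean and SD over the 3 control arrays were computed with Python 3.11.15, numpy 2.4.6 and pandas 2.3.3. Scripts were tested on simulated data. With 1 group no test was run and no p-value computed; counts of list members stand beside the share over all genes. The genes and the 25 lists, with 872 genes of which 638 were measured, were chosen with earlier results of these data known. The genes named were the 4 markers and the 2 targets, the 20 brightest genes, the 4 highest and 3 lowest of each list, the 8 highest and 8 lowest in the array furthest from the others, and the 6 with the widest gap between probe sets. The last 2 rules took no gene with a provisional name. Any other gene named was picked with its values in view, as stated beside it. In the longer lists some named genes were left without values. Alternatives were the mean of all probe sets, the choice of probe set over the control arrays alone, quantile normalisation or a shift to 1 median, the median of the arrays, a filter at the 25th percentile and leaving out each replicate. XIST and Y-linked genes were not removed before the ranking and its counts. They were left out of the named genes, the list members and the start sites.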

Additional observations from a re-analysis of the deposited data

How the results depend on the processing

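Most list counts kept within 1.5 times their value. With probe sets averaged per gene and not reduced to the brightest, the count in the top 25% became 2 instead of 4 for proneural and neural stem genes, 2 instead of 6 for receptor tyrosine kinases, 4 instead of 2 for cell cycle inhibitor and stress genes and 3 instead of 6 for AP-1 and immediate early genes. With genes under the 25th percentile left out, it became 1 instead of 2 for that list of inhibitor and stress genes and 1 instead of 3 for the inflammatory list. The genes in which replicate 3 stood apart fell from 65 to 40 when arrays were shifted to 1 median, all 40 among the 65, to 32 after quantile normalisation, 31 of them shared and 1 lower, and to 47 with the mean of probe sets, 42 of them shared. Of the 1035 genes in the top 10%, 764 were shared with the ranking by the mean of probe sets, 1034 after quantile normalisation, 1022 with the median of the arrays and 1018 to 1023 when a replicate was left out. Leaving out a replicate changed a list count by at most 2 genes. Of 191 named genes, 82 moved by over 1 SD of their 3 arrays with the mean of probe sets, and 0 with quantile normalisation. Leaving out 1 of the 3 arrays cannot move a mean by that SD, so this measure could not judge that setting. No paired analysis was possible because the description has 1 group and no test. Levels near the dimmest probe sets have no detection call and no reliable order.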

Other observations

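Of the 100 brightest genes, 40 encode ribosomal proteins, 74 belong to at least 1 of the gene lists and 26 to none. The genes given here were named after their values were seen. IGFBP7 had a mean of 14.09 (rank 36), the metallothionein MT2A 13.78 (rank 64) and the tetraspanin CD63 of late endosomes 13.59 (rank 85). UCHL1, a ubiquitin hydrolase best known from neurons, was at 13.60 (rank 84). DKK3, a secreted protein of the Dickkopf family, lay just outside the 100 at 13.33 (rank 121).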
